A study of Homo sapiens with 8 samples.

Results

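The replication-dependent histone genes are the clustered genes that supply H1, H2A, H2B, H3 and H4 when DNA is copied. They were taken by name, as every gene whose symbol begins with HIST1H, HIST2H, HIST3H or HIST4H in any of the deposited transcript lists, and their transcripts were then followed in all 8 libraries. The rule found 68 genes with 70 reference transcripts, among 23843 genes in all, and used no measured value. They comprised 6 H1, 16 H2A, 20 H2B, 13 H3 and 13 H4 genes, of which 51 lie on chromosome 6 (the HIST1 cluster), 16 on chromosome 1 (HIST2 and HIST3) and 1 on chromosome 12 (HIST4H4). HIST1H2APS1, HIST2H2BA and HIST2H2BC are pseudogenes. A further 5 genes of the family, HIST1H2AD, HIST1H2AG, HIST1H3D, HIST1H4I and HIST1H4K, carried no symbol in the lists and were therefore outside the rule.

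The cells were K562, an established human erythroleukaemia line, and every library came from cells that carried a doxycycline-inducible SF3B1 transgene, so that no group was free of one. SF3B1 is the U2 snRNP subunit that helps to select the branch point of an intron. The groups were K700E_induced (transgene SF3B1-K700E, doxycycline at 1 ug/ml for 48 hours), K700E_uninduced (the same transgene, no doxycycline), WT_induced (SF3B1-WT, the same dose and time) and WT_uninduced, with 2 libraries each; the study asked how expression and splicing changed on induction. The labels do not say whether a line is 1 clone or a pool, nor that replicates came from separate cultures, so p-values here measure the spread between these libraries, which may be technical. Total RNA was depleted of ribosomal RNA with an RNase H method, and the labels' protocols name no poly(A) selection.

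Replication-dependent histone mRNAs differ from other mRNAs in that they end in a short stem-loop and have no poly(A) tail. SLBP binds the stem-loop, and a complex with the U7 snRNP (LSM10, LSM11, ZNF473) and CPSF3, the nuclease also used for polyadenylated mRNAs, cuts just after it. NPAT turns on transcription of the clusters as cells enter S phase, and the mRNAs are removed when replication ends, with ERI1 among the nucleases involved. Most of the genes have no intron, so their mRNAs do not need the spliceosome.

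The stem-loop is the feature that sets these mRNAs apart, and where it was found its sequence separated H4 from H2A, H2B and H3. In GENCODE v29 transcripts (GRCh38) a core within 3 mismatches of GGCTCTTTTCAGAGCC, a stem of 6 base pairs around a loop of 4 bases, was searched for after the coding end of each member. It was present in 31 of the 68 genes. These were 29 of the 33 with 50 or more bases annotated after the coding end, HIST1H4J with 44 such bases, and the pseudogene HIST2H2BC, which has no coding end and was searched whole. The remaining models stop at the coding end or are pseudogenes, apart from HIST1H1E, HIST1H1T, HIST1H2BJ and HIST1H4C, which have such bases and no match. All 31 paired at 6 of 6 stem positions, G-T pairs included. Where the model has a coding end, the 16-base core began 22 to 67 bases after it. The exact core occurs in 25 of 206694 GENCODE transcripts (0.0121%). It was the form in 6 H2A, 8 H2B and 3 H3 genes. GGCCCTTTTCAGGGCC was the form in 5 genes, all H4, and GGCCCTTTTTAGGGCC in HIST2H4A and HIST2H4B. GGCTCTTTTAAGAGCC was found in 3 H2B and 2 H3 genes, and HIST1H3E and the pseudogene HIST2H2BC each had a form of their own. The sequences below show 1 or 2 genes for each form, 5′ to 3′ as DNA, with the 16-base core in capitals.
HIST2H2AA4: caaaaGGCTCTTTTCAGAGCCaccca
HIST1H2AC: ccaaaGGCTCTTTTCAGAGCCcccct
HIST2H2BF: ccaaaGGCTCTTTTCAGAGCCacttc
HIST2H3C: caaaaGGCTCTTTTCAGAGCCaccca
HIST1H2BC: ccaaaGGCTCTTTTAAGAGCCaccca
HIST1H3G: aaaaaGGCTCTTTTAAGAGCCgccta
HIST1H3E: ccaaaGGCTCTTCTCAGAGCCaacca
HIST1H4J: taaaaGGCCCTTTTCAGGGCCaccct
HIST1H4E: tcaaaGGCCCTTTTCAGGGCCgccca
HIST4H4: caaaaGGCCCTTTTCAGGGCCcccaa
HIST2H4B: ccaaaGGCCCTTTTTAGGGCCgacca
HIST1H4J and HIST2H2AA4 were among the highest members, while HIST1H3G and HIST4H4 were listed at 0 in all 8 libraries. A listed 0 is not evidence of a low level here, since UBE2C, a gene that dividing cells use, is also listed at 0 in all 8.

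Promoters were compared by 4 short motifs searched on both strands in the RefSeq window of 250 bases before to 50 after the start site (GRCh38.p14), which was matched for 60 of the 68 members. None of the 4 motifs contains another. TATAAA was in 41 of the 60 windows (68.3%) against 12% of 27305 windows of all genes, and CCAAT in 51 (85.0%) against 35.7%. ATTTGCAT, the octamer, was in 23 (38.3%) against 1.8%, and AAACACA in 9 (15%) against 5.76%. By class, CCAAT was in every H1, H2A, H2B and H3 window and in 2 of 11 H4 windows. The octamer was in 14 of 18 H2B and 9 of 14 H2A windows and in none of the H1, H3 or H4 windows. Many H2A and H2B genes start back to back, so their windows overlap and 1 match can be counted for both partners. Their counts, and the shares over all members, are therefore not counts of separate sites. AAACACA was in all 6 H1 windows, in 1 of 14 H2A and in 2 of 11 H3 windows. These are matches of letters and show no binding. The 150 bases before the start of 4 members with high values and of 3 members of the same classes listed at 0 are given below, 5′ to 3′ along the gene, with the motifs in capitals, to show how the motifs differ by class. The window of HIST1H4E holds none of the 4.
HIST1H1C, chr6:26056471-26056620, minus strand: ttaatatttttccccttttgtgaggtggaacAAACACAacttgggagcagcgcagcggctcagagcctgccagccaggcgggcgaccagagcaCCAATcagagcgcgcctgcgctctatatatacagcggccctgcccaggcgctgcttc
HIST1H1E, chr6:26156179-26156328, plus strand: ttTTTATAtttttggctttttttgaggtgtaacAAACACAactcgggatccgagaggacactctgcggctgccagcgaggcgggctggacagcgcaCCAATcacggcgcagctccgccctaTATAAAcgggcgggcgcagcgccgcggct
HIST1H1A, chr6:26017788-26017937, minus strand: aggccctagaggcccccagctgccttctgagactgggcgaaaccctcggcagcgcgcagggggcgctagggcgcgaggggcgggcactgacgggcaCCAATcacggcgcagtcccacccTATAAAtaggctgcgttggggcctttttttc
HIST1H3B, chr6:26032100-26032249, minus strand: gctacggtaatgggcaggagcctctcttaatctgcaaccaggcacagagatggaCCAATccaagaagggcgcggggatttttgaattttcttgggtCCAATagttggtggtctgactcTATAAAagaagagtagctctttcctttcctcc
HIST1H3G, chr6:26271414-26271563, minus strand: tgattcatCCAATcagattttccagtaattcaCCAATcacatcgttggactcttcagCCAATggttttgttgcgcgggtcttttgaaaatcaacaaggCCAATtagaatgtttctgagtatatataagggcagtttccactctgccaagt
HIST1H4E, chr6:26204460-26204609, plus strand: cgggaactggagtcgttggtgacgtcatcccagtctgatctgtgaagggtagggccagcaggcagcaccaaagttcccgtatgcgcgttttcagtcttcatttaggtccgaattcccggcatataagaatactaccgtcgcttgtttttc
HIST1H4F, chr6:26240243-26240392, plus strand: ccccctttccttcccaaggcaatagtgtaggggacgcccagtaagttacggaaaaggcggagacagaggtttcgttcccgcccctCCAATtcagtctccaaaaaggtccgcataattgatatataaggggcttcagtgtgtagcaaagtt
HIST1H1A, HIST1H3G and HIST1H4F were listed at 0 in all 8 libraries. The H1 motif of HIST1H1A falls in the part of its window not printed. Among the 48 members tested that had a window, 41 held CCAAT, and among the 12 not tested, 10 did.

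Values are FPKM, fragments per kilobase of transcript normalised to library size, scaled between libraries by factors of 0.991 to 1.04. Read totals are not used here, and the median coverage per FPKM of the members' transcripts, the measure of depth in the lists, was 3.24 to 4.76. SF3B1 itself was at 26.9 to 39 FPKM in the 8 libraries, at 33.8 ± 7.33 in K700E_induced and 32.0 ± 1.83 in K700E_uninduced (SD, n = 2), and at 31.7 ± 6.83 in WT_induced and 34.5 ± 4.52 in WT_uninduced. Its level therefore does not check which libraries were induced. All 12 K562 markers were present, with summed levels of 8580 to 18700 FPKM. Of 8 myeloid markers 3 were at 0 throughout; their sum was 27.1 to 30.1 in K700E_induced and 53.3 to 76.6 elsewhere. The sum of 6 lymphoid markers, 2 of them at 0 throughout, was 9.89 to 10.3 FPKM in K700E_induced, 21.9 to 60.9 in K700E_uninduced, 8.26 to 23 in WT_induced and 25.5 to 38 in WT_uninduced. That of 10 stromal and epithelial markers, 2 of them at 0 throughout, was 573 to 611, 962 to 1150, 425 to 548 and 452 to 665 FPKM in the same order. All 3 sums were lower in K700E_induced than in K700E_uninduced without overlap, and their part in the results was not tested. The file names place all replicates 1 in lane L001 and all replicates 2 in lane L002, so each comparison below has 1 library of each group in each lane.

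By FPKM, which are divided by model length, histone mRNAs were among the highest of the genes ranked. Of the 68 genes, 54 had a mean of 1 FPKM or more, 43 of 100 or more and 9 of 1000 or more. In the ranking of 22056 genes with a transcript of 300 nt or more by mean FPKM, they filled 9 of the first 50 places and 31 of the first 200. Near-identical copies hold separate places here, HIST2H2AA4 and HIST2H2AA3 among the first 50. HIST2H4B and HIST2H4A, and HIST2H3A and HIST2H3C, do so among the first 200. The 14 others were below 1 FPKM on average, and HIST1H1A, HIST1H3G, HIST1H4F, HIST1H4L and HIST4H4 were listed at 0 in all libraries.

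**Figure D1:**
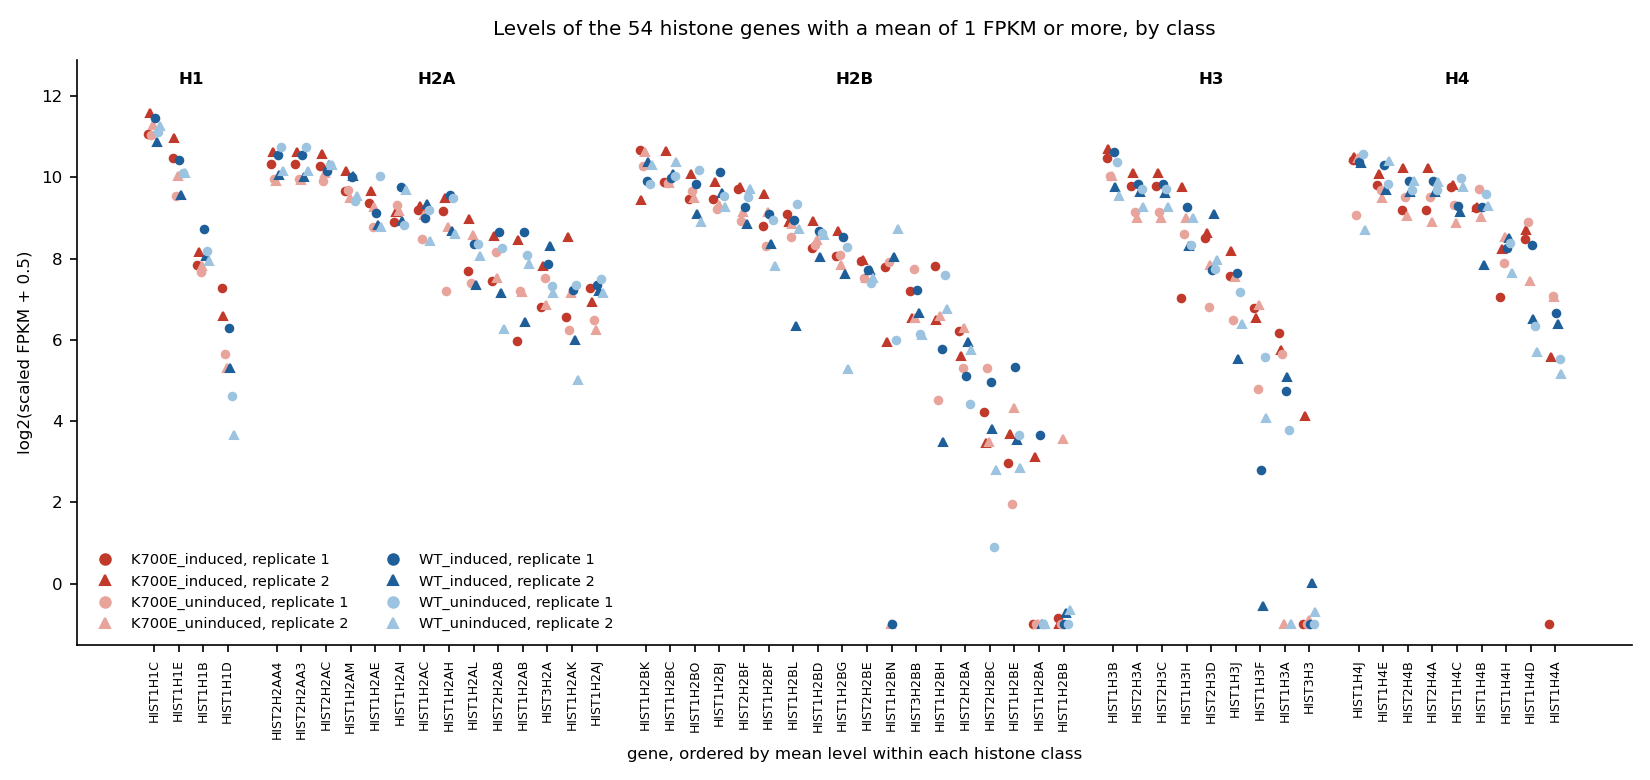
Level of each histone gene with a mean of 1 FPKM or more, as log2(scaled FPKM + 0.5), in the 8 libraries (colour, group; circle, replicate 1; triangle, replicate 2), ordered by mean within each class. The leading member of every class has a mean above 1000 FPKM, HIST1H1C being highest at 2400, and points at the bottom are libraries listed at 0.

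The summed level of all members was 28314 FPKM on average, and ran from 23513 in K700E_uninduced replicate 1 to 36606 in K700E_induced replicate 2. H2A genes made up 26.9% to 31.8% of it, H2B genes 21.6% to 25.9%, H4 genes 19.0% to 21.9%, H1 genes 12% to 15.2% and H3 genes 11% to 15.2%. Among the members taken by the rule, H2A was above H2B, and H2B above H4, in 8 of 8 libraries. The order of H2B and H4 depends on which genes and models are counted. In WT_induced replicate 1, for example, H2B was at 6975 FPKM and H4 at 6510. HIST1H4K, an H4 gene outside the rule, was at 1295 FPKM in that library. The H2B sum there also leaves out the HIST1H2BK model, which was listed higher than HIST1H4K, so the example does not settle which class was higher. H1 and H3 could not be ordered, since H1 was higher in 4 of 8. By position, the part of HIST1 nearest the short-arm end (25726291 to 26285727 on hg19) gave 36.1% to 42.5%, HIST2 25.1% to 32.5%, and the 3 HIST3 genes 0.762% to 1.72%. These sums leave out HIST1H2AG, an H2A gene outside the rule whose accession was at 1566 to 2528 FPKM, and HIST1H4K, at 1070 to 1563 FPKM.

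**Figure D2:**
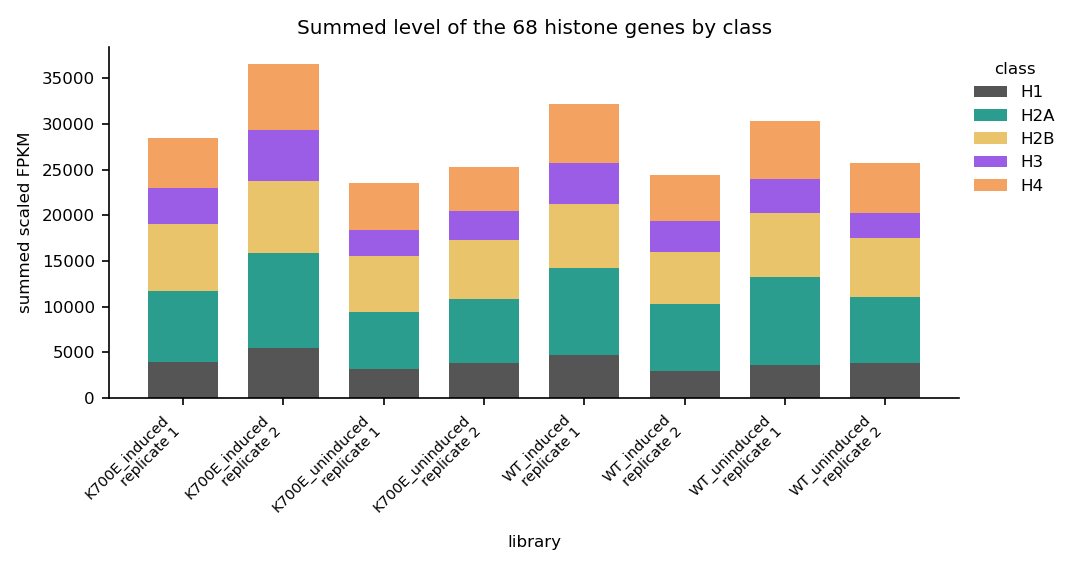
Summed scaled FPKM of the 68 histone genes in each library, stacked by class (H1 at the bottom to H4 at the top). The total runs from 23513 in K700E_uninduced replicate 1 to 36606 in K700E_induced replicate 2, while the share of each class stays within a few percentage points. Assembled models not joined to a gene are left out, which lowers some of the sums.

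H1, the linker histone, was carried by few genes. HIST1H1C (732 nt, chromosome 6, 26055968 to 26056699, 1 exon) was the highest member and 8th of all ranked genes; with HIST1H1E and HIST1H1B it made up 98.4% of H1. It was at 2131 and 3047 FPKM in K700E_induced, 2125 and 2519 in K700E_uninduced, 2818 and 1876 in WT_induced and 2216 and 2464 in WT_uninduced. The 4 groups overlapped. HIST1H1E was at 1430 and 1996, 747 and 1046, 1371 and 757, and 1102 and 1111 FPKM in the same order of groups, with both K700E_induced libraries above all others. HIST1H1C was above HIST1H1E in each of the 8 libraries. HIST1H1B was at 202 to 422 FPKM. HIST1H1D, lower still, varied most: 155 and 94.9 in K700E_induced, 49.9 and 38.8 in K700E_uninduced, 77.8 and 39.3 in WT_induced and 23.9 and 12.1 in WT_uninduced. HIST1H1T, the testis form, was above 0 in 1 library, at 2.05 FPKM.

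Among the H2A members taken by the rule, which leave out the higher HIST1H2AG, the 3 highest all lay in HIST2. HIST2H2AA4 and HIST2H2AA3, an inverted pair of copies on chromosome 1 (149822628 to 149823161 and 149813785 to 149814318), had no 50-base stretch of their own, and their values differed by at most 3.56%. They show how the estimate was divided and are 1 measurement. HIST2H2AA4 was at 1290 and 1573 FPKM in K700E_induced, 1003 and 967 in K700E_uninduced, 1504 and 1058 in WT_induced and 1729 and 1135 in WT_uninduced. HIST2H2AC, the steadiest member at this level (CV 13.3% over the 8 libraries), was at 1245 and 1528, 963 and 1107, 1149 and 1259, and 1273 and 1274 FPKM in the same order. Of the HIST1 members of the class, HIST1H2AM had the highest mean, at 687 to 1145 FPKM. The H2A genes between HIST1H2AE and HIST1H2AH had means of 628 to 520 FPKM and could not be ordered, each being above the next in 4 of 8 libraries.

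H2B levels were spread over more genes. HIST1H2BK and HIST1H2BC had the highest means, 1197 and 1109 FPKM, and each was above the other in 4 of 8 libraries. HIST1H2BC (chromosome 6, 26123695 to 26124132) was at 952 and 1596 FPKM in K700E_induced, 927 and 932 in K700E_uninduced, 1005 and 1077 in WT_induced and 1049 and 1335 in WT_uninduced. HIST1H2BK has a reference model with 2 exons and 839 nt. In K700E_induced replicate 2, WT_induced replicate 1 and WT_uninduced replicate 1 an assembled unspliced model of 430 to 496 nt over its first exon was listed beside it at 2132 to 2343 FPKM, so its 691 to 1622 FPKM leave out the larger part there. HIST1H2BO, HIST1H2BJ and HIST2H2BF followed with means of 801, 770 and 677 FPKM. HIST2H2BE, whose model reaches 2223 nt, was at 168 to 251 FPKM with a CV of 14.8%, and HIST1H2BA, the testis form, was above 0 in 2 libraries, at 8.22 and 12.1 FPKM.

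In H3, HIST1H3B, HIST2H3A and HIST2H3C held 73.7% of the class. HIST1H3B (chromosome 6, 26031817 to 26032288) was at 1418 and 1661 FPKM in K700E_induced, 1043 and 1052 in K700E_uninduced, 1587 and 866 in WT_induced and 1334 and 743 in WT_uninduced. The K700E groups did not overlap and the WT groups did. HIST2H3A and HIST2H3C, also a pair of identical copies, were at 879 and 1097, 565 and 514, 915 and 801, and 840 and 615 FPKM for HIST2H3A in the same order. HIST2H3D, which encodes H3 in the same cluster, was at 364 and 398, 112 and 229, 209 and 550, and 214 and 248 FPKM. HIST3H3, the testis H3, was at 16.9 FPKM in K700E_induced replicate 2 and at 0.516 or less in the other libraries.

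Among the H4 members, which leave out HIST1H4K, HIST1H4J (chromosome 6, 27791903 to 27792258) had the highest mean. It was at 1365 and 1450 FPKM in K700E_induced, 542 and 1421 in K700E_uninduced, 1338 and 1313 in WT_induced and 1517 and 416 in WT_uninduced. All of its 50-base stretches occur in HIST1H4K as well, so both share reads. HIST1H4E, with no such copy, was at 895 and 1080, 822 and 723, 1257 and 830, and 914 and 1343 FPKM in the same order, with K700E_uninduced below both K700E_induced and WT_uninduced without overlap. HIST2H4B and its copy HIST2H4A were at 528 to 1208 and 480 to 1207 FPKM. HIST1H4C (chromosome 6, 26104176 to 26104565) was at 872 and 898 in K700E_induced, 636 and 466 in K700E_uninduced, 633 and 565 in WT_induced and 1011 and 868 in WT_uninduced. HIST1H4D was at 356 and 419, 474 and 174, 322 and 91.0, and 80.3 and 51.9 FPKM, and 3 of the 4 K700E libraries were above all 4 WT libraries.

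Several H2A and H2B genes start back to back within 224 to 347 nt and share their upstream DNA, yet in some pairs the partners differed in level. Other pairs kept no single order. HIST1H2AK was above HIST1H2BN in 4 of 8 libraries, with means of 136 and 159 FPKM. These include K700E_uninduced replicate 2 and WT_induced replicate 1, where HIST1H2BN was listed at 0 beside larger assembled models, given below, that were left out. HIST3H2A was above HIST3H2BB in 6 of 8 and HIST1H2BL above HIST1H2AI in 2 of 8. HIST1H2BC was above HIST1H2AC in 8 of 8 libraries, with means of 1109 and 525 FPKM. HIST1H2AE was above HIST1H2BG in 8 of 8, with means of 628 and 262 FPKM. HIST2H2AC was above HIST2H2BE in 8 of 8, at 1225 against 204 FPKM. Their models are 437 and 2223 nt long, and FPKM are divided by model length. How much of this gap comes from the longer model was not tested. For HIST1H2AJ, at 75.8 to 182 FPKM, the partner HIST1H2BM did not pass 0.462 FPKM in any library. HIST1H2AM and HIST1H2BO, at means of 877 and 801 FPKM, were nearest to each other among the pairs with both above 500 FPKM, and HIST1H2AM was higher in 7 of 8 libraries. The octamer was present on the shared stretch of HIST1H2BC and HIST1H2AC, as the lines for both show.
HIST1H2BC, chr6:26123927-26124076, minus strand: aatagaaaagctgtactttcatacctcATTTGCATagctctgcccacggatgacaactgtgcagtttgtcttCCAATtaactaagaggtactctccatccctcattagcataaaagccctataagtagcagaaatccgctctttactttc
HIST1H2AC, chr6:26124022-26124171, plus strand: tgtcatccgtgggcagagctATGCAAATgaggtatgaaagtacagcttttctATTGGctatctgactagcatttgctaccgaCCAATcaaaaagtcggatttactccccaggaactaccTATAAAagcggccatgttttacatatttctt

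Estimation limits how far single members can be read. Cufflinks divides reads among models by likelihood, and where it assembled a near-copy of a histone gene the reference model could lose its whole value. There were 39 such copies on 21 genes. The reference was listed at 0 beside 23 of them, and 11 had the same value as the reference to within 0.1%. The copies were spread unevenly, with 12 in K700E_uninduced replicate 2 and 2 to 7 in the other libraries. Their FPKM were added to the gene, which cut the zeros among the 432 values of the tested members from 39 to 19. For HIST1H3B in K700E_induced replicate 1 the whole level comes from such a copy. Zeros also remained where the assembled model differed more: HIST1H4A was listed at 0 in K700E_induced replicate 1 beside a 323-nt model at 108 FPKM, and HIST1H2BN at 0 in K700E_uninduced replicate 2 and WT_induced replicate 1 beside models of 540 and 537 nt at 569 and 397 FPKM. Members also resemble each other. In coding sequence, pairs within H2A were 77.6% to 100% identical and pairs within H4 79.2% to 100%. In GENCODE, searched on both strands, 34 members shared no 50-base stretch with another gene and 17 had under 50% of theirs to themselves. Not all of this sharing is between copies of a class. The main partner of HIST1H2AK was the neighbouring HIST1H2BN, and that of HIST1H2AM was the nearby HIST1H3J.

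The spread between libraries was wider than the interval listed with each estimate. The spread was taken over all 4 groups and can also hold the division of reads among models described above, so it was not set against the whole error of the estimate. For members' transcripts of 10 FPKM or more, the interval that the authors' lists give had a median half-width per library of 4.45% to 5.6% of the level. Over the 8 libraries the 42 histone genes of 100 FPKM or more without a zero had a median CV of 27.9% (13.3% to 76.8%), against 21.7% for 593 other genes at like level. For 8 other single-exon genes of 300 to 800 nt at like level it was 27.0%.

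In the K700E line, histone mRNAs stood mostly higher with doxycycline, but no gene passed the test. Of the 54 members tested 45 had a positive log2 fold change and 9 a negative one, with a median of 0.43, where all 11447 genes tested had a median of -0.01 and 48.4% were positive. At an adjusted p under 0.05 (limma with Benjamini-Hochberg adjustment over all genes) 0 members were called, against 2 of all genes (0.0175%), 1 higher and 1 lower (0.00874% each). At an unadjusted p under 0.05 there were 10 members, of 533 genes (4.66%), and the smallest adjusted p was 0.975. Both induced libraries were above both uninduced ones for 23 members (42.6%), against 16.1% of all genes. They were below for 2 (3.7%), HIST1H4A and HIST1H2AI, against 17.7%. With each of the 3 pairs of near-identical copies in HIST2 counted once, 42 of 51 were positive (median 0.42) and 21 (41.2%) were higher without overlap. In bulk RNA more cells of a kind and more RNA per cell cannot be told apart.

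Every class leaned the same way. The median log2 fold change was 0.60 for 4 H1 genes, 0.44 for 14 H2A, 0.36 for 18 H2B, 0.87 for 9 H3 and 0.43 for 9 H4 genes. By block it was 0.51 for the 13 HIST2 genes (0.44 for 10, with copies once), 0.43 for the 23 genes at the short-arm side of HIST1 and 0.12 for the 3 HIST3 genes. The summed FPKM was 1.33 times higher in K700E_induced (32525 ± 5770 against 24388 ± 1240, SD, n = 2), from 1.21 times for H2B to 1.61 times for H3. Assembled models were left out of these sums in both groups. For H2B these were HIST1H2BK in K700E_induced replicate 2, at the higher level, and HIST1H2BN in K700E_uninduced replicate 2. For H2A it was HIST1H2AH in K700E_uninduced replicate 1. The order of the classes by this factor was therefore not settled. The sum depended on 1 library: with K700E_induced replicate 1 alone against both uninduced libraries the factor was 1.17, and with replicate 2 alone 1.5. The median log2 fold change was 0.22 without K700E_induced replicate 2 and 0.68 without replicate 1.

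Members with an unadjusted p under 0.05 came from H1, H2A, H2B, H3 and H4. HIST2H3A was higher by 0.86 (SE 0.25, unadjusted p = 0.00798 and adjusted p = 0.975 by limma), HIST2H2BF by 0.71 (SE 0.24, adjusted p = 0.975) and HIST2H3D by 1.25 (SE 0.49, adjusted p = 0.994) on the log2 scale. HIST2H2BF was at 836 and 873 FPKM in K700E_induced and at 487.5 and 562.1 in K700E_uninduced. HIST1H1E was higher by 0.93 (SE 0.34), HIST1H1D by 1.45 (SE 0.49) and HIST1H4C by 0.70 (SE 0.24), each with an adjusted p of 0.975 by limma. For the most abundant gene, HIST1H1C, the difference was 0.14 (SE 0.29), and its sign turned without K700E_induced replicate 2 (-0.12). HIST1H2BK was at -0.40 (SE 0.41), and at 1.00 with the assembled unspliced models named above added. HIST2H2AA4 (0.53), HIST2H2AC (0.42) and HIST2H2BE (0.43) were each higher in both induced libraries.

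The extremes of this comparison rest on zeros or low values. HIST1H3A was at 71.4 and 53.4 FPKM in K700E_induced and at 49.4 and 0 in K700E_uninduced, and HIST1H2BN at 221 and 61.3 against 240 and 0. HIST3H3 stood out through 1 library. At the lower end, HIST1H4A was at 0 and 47.0 FPKM in K700E_induced and 135 and 133 in K700E_uninduced, HIST1H2BB reached 11.4 FPKM in K700E_uninduced replicate 2 and 0.143 or less elsewhere, and the pseudogene HIST2H2BC was at 18.2 and 10.5 against 39.3 and 10.8. HIST1H4A was called, with an adjusted p of 0.0121 by limma, where K700E_induced replicate 2 was left out, that is, where its value at 0 was the only one of its group.

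**Figure D3:**
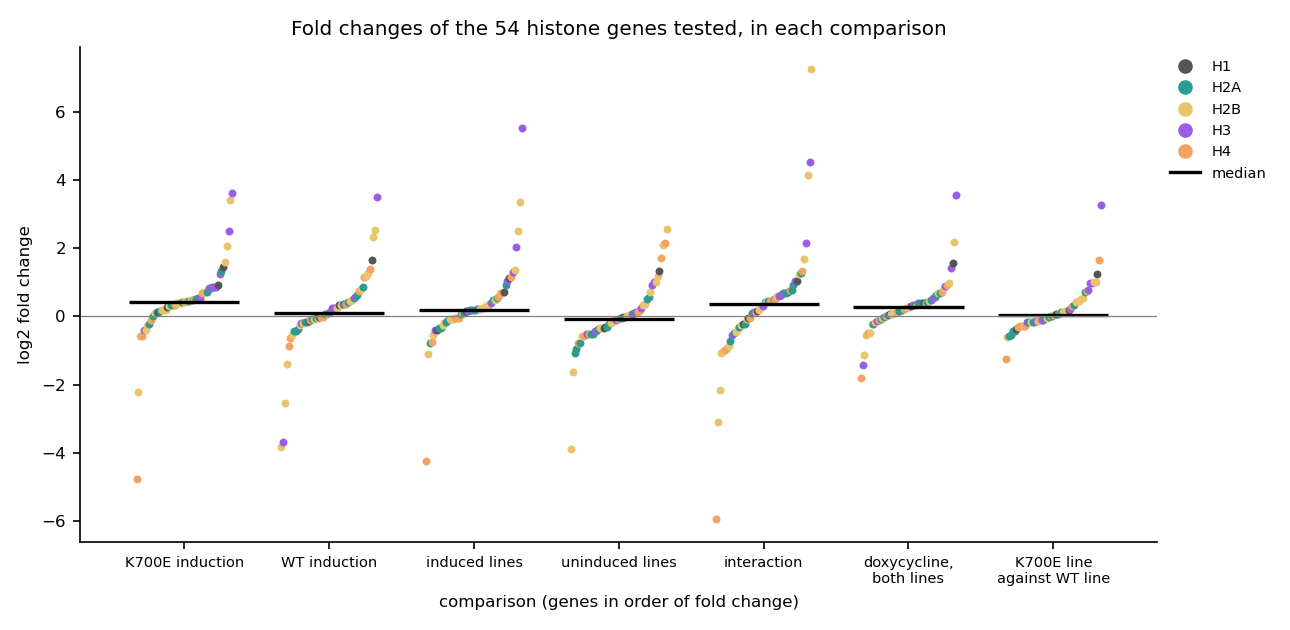
Log2 fold change, on the log2(FPKM + 0.5) scale, of the 54 histone genes tested in each of 7 comparisons, with genes in order of fold change and coloured by class; the black line is the median. In K700E induction 45 genes lie above 0 and the median is 0.43, in WT induction 30 lie above 0 and the median is 0.11.

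Library by library, the histone level did not follow induction alone. Each gene's deviation from its own mean over the 8 libraries was taken for the 48 members above 0 in all libraries, and the median was 0.12 and 0.42 in K700E_induced, -0.23 and -0.13 in K700E_uninduced, 0.28 and -0.23 in WT_induced and 0.15 and -0.14 in WT_uninduced (log2, replicates 1 and 2). The WT libraries thus differed by replicate number, with both replicates 1 above and both replicates 2 below, and the WT groups overlapped. In K700E_induced replicate 2, 43 of the 48 were above their own mean. Over all 8740 genes without a zero the same medians spanned 0.01, over 16 other single-exon genes of 300 to 800 nt 0.38 and over the histone genes 0.65. Other short single-exon genes were also high in WT_induced replicate 1 (0.24) but not in K700E_induced replicate 2 (0.06).

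**Figure D4:**
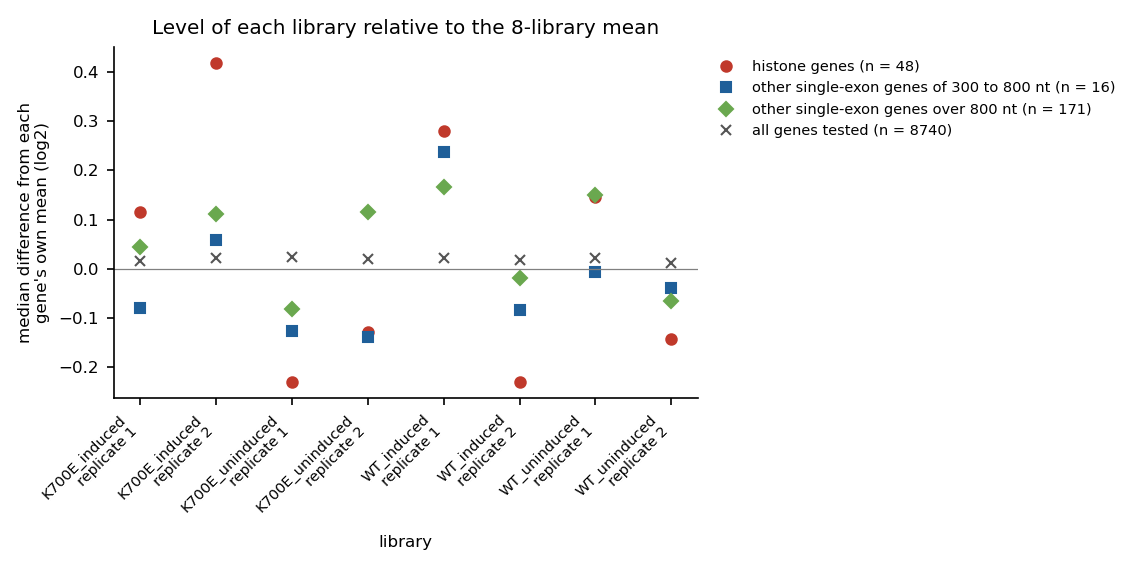
Median difference (log2) of each library from each gene's own 8-library mean, for histone genes, other single-exon genes in 2 length ranges and all genes tested. Histone genes range from -0.23 to 0.42, K700E_induced replicate 2 being highest, while all genes stay within 0.01 to 0.02.

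Within lane L001 the K700E induction difference had a median of 0.30 and was positive for 34 of 54 members; within lane L002 the median was 0.63 and 43 were positive. It was positive in both lanes for 28 members (51.9%) against 23.8% of all genes, and negative in both for 5 (9.26%) against 25.5%.

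On induction of wild-type SF3B1 the members lay on both sides of 0. Of 54 members 30 were positive and 24 negative, with a median of 0.11 (all genes 0.00). None was called, against 3 of all genes (0.0262%), and 6 had an unadjusted p under 0.05, against 4.36% of all genes. Groups did not overlap for 10 higher members (18.5%, against 15% of all genes) and for 6 lower ones (11.1%, against 14%). The summed FPKM was 28323 ± 5500 in WT_induced and 28022 ± 3220 in WT_uninduced (SD, n = 2), a ratio of 1.01. Left out in turn, single libraries moved the median between -0.06 (without WT_induced replicate 1) and 0.30 (without WT_induced replicate 2), so its sign was not settled; with quantile normalization it was -0.01, and with assembled models 50% inside a gene -0.13.

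Among the highest here were HIST2H2BC, at 30.7 and 13.4 FPKM in WT_induced and 1.36 and 6.47 in WT_uninduced (2.53, SE 0.88), and HIST1H3A, at 26.1 and 33.4 against 13.3 and 0. HIST1H2BA was at 12.1 and 0 against 0 in both. The lowest were HIST1H3F, at 6.47 and 0.183 FPKM against 47.2 and 16.3 (-3.70, SE 1.11, adjusted p = 0.992 by limma), HIST1H2BH, at 54.4 and 10.7 against 193 and 108 (-2.55, SE 0.91), and HIST1H2BN, at 0 and 263 against 63.3 and 423. HIST1H4C and HIST2H2BF, both positive in the K700E line, were at -0.65 (SE 0.24) and -0.55 (SE 0.24). HIST1H1D was higher on both inductions, at 1.67 (SE 0.49) in the WT line.

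Between the induced lines, 35 of 54 members were positive and the median was 0.20. These groups differ in transgene and in line at once, which cannot be told apart here. None was called, against 4 of all genes (0.0349%), 1 of them higher (0.00874%) and 3 lower (0.0262%). Of the members, 5 had an unadjusted p under 0.05, against 5.24% of all genes. Without overlap, 11 were higher in K700E_induced (20.4%, against 16.2% of all genes) and 3 lower (5.56%, against 16.5%). The median was 0.03 without K700E_induced replicate 2, -0.03 without WT_induced replicate 2 and 0.46 without K700E_induced replicate 1. In lane L001 it was -0.12 and in lane L002 0.62. Here HIST1H3F had the largest fold and the smallest adjusted p of the members. Its 2 K700E_induced libraries held 109 and 93.1 FPKM and its 2 WT_induced libraries 6.47 and 0.183 (5.54, SE 1.11, adjusted p = 0.395 by limma). HIST1H2BH was at 226 and 88.8 against 54.4 and 10.7 (2.52, SE 0.91), and HIST1H2BN at 221 and 61.3 against 0 and 263. The lowest were HIST1H4A, with its zero, HIST1H2BE, at 7.34 and 12.32 against 39.5 and 11.1, and HIST3H2A, at 112 and 225 against 234 and 319 (-0.79, SE 0.40).

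Without doxycycline more members lay below than above 0 in the K700E line against the WT line. The median was -0.06, 22 members were positive and 31 negative, and none was called, against 2 of all genes (0.0175%). An unadjusted p under 0.05 was reached by 6, against 4.68% of all genes. K700E_uninduced lay below WT_uninduced without overlap for 17 members (31.5%, against 15.7% of all genes) and above for 5 (9.26%, against 16.8%). In HIST2 the median was -0.42 and 8 of 13 members were lower without overlap. With copies counted once these were 5 of 10 (median -0.36), and 14 of 51 over all members (27.5%). HIST2H2AA4, for example, was at 1003 and 967 FPKM against 1729 and 1135. HIST1H4D was higher, at 474 and 174 against 80.3 and 51.9 (2.14, SE 0.64), as were HIST2H2BC (2.56, SE 0.88) and HIST1H2BB, which rests on 1 library. HIST1H2BN, HIST1H2BH (22.3 and 95.8 against 193 and 108) and HIST1H2AH (146 and 442 against 722 and 389) were lowest. In K700E_uninduced replicate 1 HIST1H2AH had a second, 323-nt model at 961 FPKM, and with it the difference was 0.37. The lower uninduced level of the K700E line and its difference on induction share the same 2 libraries and are not independent.

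Whether induction acted differently in the 2 lines was tested by the interaction. It was positive for 34 of 54 members, with a median of 0.37 (all genes -0.05). No member was called, against 3 of all genes (0.0262%, with 0.00874% higher). Of the members, 6 had an unadjusted p under 0.05, against 4.32% of all genes. The median was 0.07 without K700E_induced replicate 2 and 0.05 without WT_induced replicate 2. HIST1H4C (1.35, SE 0.33, unadjusted p = 0.00377) and HIST2H2BF (1.26, SE 0.33, unadjusted p = 0.00532) had the smallest unadjusted p, with an adjusted p of 0.999 by limma. HIST1H2BH (4.15) and HIST1H3F (4.54) were high and HIST2H2BC (-3.10) low among members without a zero. HIST1H2BN (7.25), HIST1H4A (-5.96) and HIST1H2BB (-2.17) rest on zeros.

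With the lines pooled, 4 libraries against 4, doxycycline gave a median of 0.27 with 40 of 54 members positive and none called, against 3 of all genes (0.0262%). An unadjusted p under 0.05 was reached by 7, against 4.54% of all genes. All 4 induced libraries were above all 4 uninduced ones for 1 member (1.85%, against 1.23% of all genes), HIST2H2BE, at 210 to 251 FPKM against 168 to 183, and below for none (against 1.3% of all genes). HIST1H1D was higher by 1.56 (SE 0.35, unadjusted p = 0.002, adjusted p = 0.954 by limma). All 13 HIST2 genes, or 10 with copies once, had a positive value, from 0.08 to 0.99. HIST1H3A and HIST1H2BA were highest, and HIST1H4A, HIST1H3F and HIST1H2BB lowest. Between the lines with doxycycline pooled, the median was 0.03, 29 members were positive and none was called, against 5 of all genes (0.0437%). No member was above or below without overlap, against 1.78% and 1.87% of all genes. There HIST1H3F (3.27, SE 0.79, adjusted p = 0.644 by limma), HIST1H4D (1.66, SE 0.45) and HIST1H1D (1.24, SE 0.35) were highest and HIST1H4A, HIST1H2BE (-0.60) and HIST1H2AJ (-0.56, SE 0.19) lowest.

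The remaining HIST2 and HIST3 genes varied within groups. HIST2H2AB was at 173 and 379 FPKM in K700E_induced, 288 and 184 in K700E_uninduced, 405 and 142 in WT_induced and 307 and 76.9 in WT_uninduced. The pseudogene HIST2H2BA was at 21.1 to 78.3 FPKM in all libraries. HIST3H2A and HIST3H2BB, a back-to-back pair, were at 112 to 319 and 69.4 to 213 FPKM, and their K700E groups overlapped; HIST3H2A was higher in both WT_induced libraries (234 and 319) than in both WT_uninduced ones (160.5 and 142).

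None of the factors that make or remove histone mRNA was called in any comparison. The list for transcription of the clusters held 13 genes tested; for K700E induction 6 were positive, with a median of -0.03. NPAT was at 13.2 and 8.34 FPKM in K700E_induced and 9.32 and 9.94 in K700E_uninduced, against 5.01 and 9.53 in WT_induced and 6.22 and 5.60 in WT_uninduced. CASP8AP2, a partner of NPAT at the histone locus body, was at 5.04 to 9.29 FPKM in all libraries, and HINFP, which activates H4 genes, at 3.36 to 22.6.

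For 3′ end processing 25 genes were tested, 15 of them positive on K700E induction (median 0.07). SLBP was at 38.2 and 34.5 FPKM in K700E_induced and 18.6 and 17.9 in K700E_uninduced (0.97, SE 0.43, adjusted p of 1 by limma). In the WT line it went the other way, 25.3 and 50.3 in WT_induced against 42.8 and 65.7 in WT_uninduced (-0.56, SE 0.43). Its uninduced levels were lower in the K700E line in both libraries (-1.51, SE 0.43, unadjusted p = 0.00833, adjusted p = 0.959). ZNF473 was at 68.4 and 14.4 against 3.44 and 10.7 FPKM in the K700E line and at 6.38 to 8.72 in the WT line. LSM10 was at 1.74 in WT_uninduced replicate 1 and at 14.5 to 78.4 elsewhere, and LSM11 at 0 to 9.81.

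Of 20 genes of histone mRNA translation and decay 16 were positive on K700E induction (median 0.26). ERI1 was at 7.01 and 8.38 FPKM against 5.77 and 2.44. Of 32 genes of S phase and DNA replication 25 were positive, with a median of 0.41 that lay close to the 0.43 of the histone genes. PCNA, the replication clamp, was at 93.2 and 141 FPKM in K700E_induced, 52.2 and 61.7 in K700E_uninduced, 59.7 and 90.1 in WT_induced and 38.5 and 51.2 in WT_uninduced (1.01, SE 0.36, adjusted p = 0.975 by limma for K700E induction). Of 17 mitosis genes 13 were positive (median 0.26). On WT induction the medians of these lists were 0.06 for decay, 0.05 for S phase and -0.09 for mitosis. Whether the share of cells in S phase differed between libraries was not tested, and the bulk values do not give it. Histone chaperones, 20 genes, had a median of 0.04.

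The genes listed as replication-independent histone variants were lower than the leading members. H2AFZ was at 178 to 284 FPKM and H3F3B, which encodes H3.3, at 113 and 150 in K700E_induced, 74.9 and 67.3 in K700E_uninduced, 111 and 131 in WT_induced and 104 and 85.3 in WT_uninduced. The H3F3B difference on K700E induction was 0.87 (SE 0.28, adjusted p = 0.975 by limma). Of 9 variants tested 6 were positive on K700E induction (median 0.35) and 6 on WT induction (0.36). For H3F3A, only K700E_uninduced replicate 2 gave a level (198 FPKM), and the 7 others list it at 0, which can be a failed estimate. Without it the medians of the other 8 variants were 0.43 and 0.38. Of 15 other RNAs without a poly(A) tail 5 were in the lists, and 2 of them were positive on K700E induction (median -0.28).

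**Figure D5:**
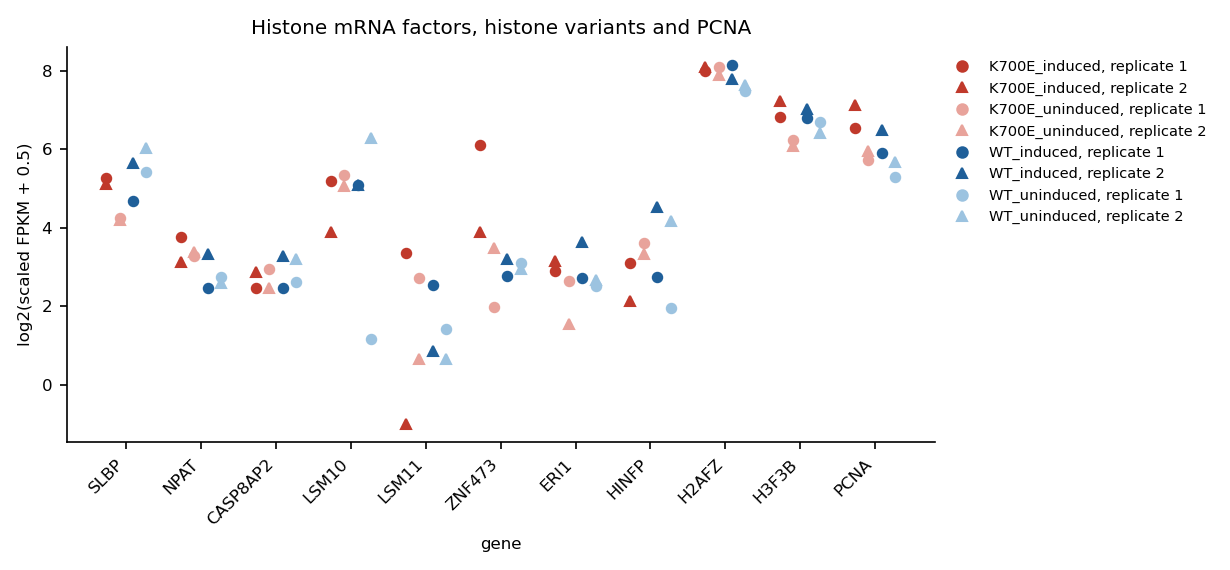
Levels, as log2(scaled FPKM + 0.5), of factors of histone mRNA synthesis and decay, of the variants H2AFZ and H3F3B and of PCNA in the 8 libraries (colour, group; circle, replicate 1; triangle, replicate 2). SLBP, H3F3B and PCNA stand higher in both K700E_induced libraries than in both K700E_uninduced ones, and LSM11, ZNF473 and LSM10 spread widely within groups.

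Although the members have no intron in most reference models, spliced models that begin in a histone gene were assembled. HIST1H2BC was joined across an intron of 8379 nt (chromosome 6, 26115364 to 26123742, hg19) in K700E_induced replicate 2, WT_induced replicate 1 and WT_uninduced replicate 1, at 268 to 383 FPKM. Its donor lay 48 bases before the end of the reference transcript. HIST1H2AC was spliced across 13304 nt (26124978 to 26138281) from a donor 59 bases past its end in K700E_uninduced replicate 1 and WT_uninduced replicate 2, at 55.2 and 94.9 FPKM. The same HIST1H2BN intron (2498 nt, 27806844 to 27809341) recurred in K700E_uninduced replicate 1 and WT_uninduced replicate 2, and a HIST1H4H intron (3446 nt, 26281816 to 26285261) in K700E_uninduced replicate 1 and WT_induced replicate 1. An intron of each of these 4 lengths is annotated for the same gene in GENCODE v29. Forms of HIST1H2BJ, HIST1H2BO and HIST1H3B were assembled in 1 library each and have no such match. The forms came from both lines, with and without doxycycline, and were too few for a test.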

How the data were processed

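RNA of 8 libraries (4 groups of 2) was sequenced. The authors' deposited values are FPKM per transcript with an interval and a coverage, a quantity of other kind than counts. The submitters' processing notes name CASAVA, TopHat, Cufflinks and the build hg19, without versions. Read counts are not used here.

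A gene's value was the FPKM sum over its reference transcripts, assembled spliced transcripts of 300 nt or more sharing its introns, and assembled unspliced ones covering 90% of a single-exon reference and covered by it to 90%. Libraries were scaled by median ratios over 7555 genes. The 11447 genes with a mean of 1 FPKM or more were tested as log2(FPKM + 0.5), a scale that understates changes of low genes, with limma 3.58.1 (trend, group means, 8 libraries, R 4.3.3), Benjamini-Hochberg adjustment per comparison and a threshold of 0.05. The script was tested on simulated data. Members without 1 FPKM on average (14) were not tested. Tables and figures used Python 3.11.15, pandas 2.3.3 and matplotlib 3.10.9.

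Members, gene lists and comparisons were chosen with earlier results of these data known. Named were the 3 highest genes per class, the 3 highest and 3 lowest fold changes per comparison, all HIST2 to HIST4 genes above the limit, and a set of factors; HIST1H4C, HIST1H2AM and other members shown were added after their values were seen. Sequences are RefSeq promoters (GRCh38.p14) and GENCODE v29 transcripts. Alternatives are listed in the closing section.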

Additional observations from a re-analysis of the deposited data

Results flagged for a closer look

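Among the 4 libraries on each side of the pooled comparisons, 84 groups of values were examined, for the summed level of each class and of all members and for the 3 highest genes of each class. A library stood apart from the other 3 by Dixon's test at its 95% critical value in 3 of them, and chance gives about 1 in 20. HIST1H2BC reached 1596 FPKM in K700E_induced replicate 2, where the next K700E library was at 952. HIST1H4J was at 542 FPKM in K700E_uninduced replicate 1, where the next K700E library was at 1365. HIST2H2AC was at 1149 FPKM in WT_induced replicate 1, where the next WT library was at 1259.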

How the results depend on the processing

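The number of histone genes called was 0 in every comparison under every other setting run, and 1 in K700E induction, induced lines and interaction without K700E_induced replicate 2 (range 0 to 1). That gene was HIST1H4A, listed at 0 in the library left. Leaving out single libraries gave median log2 fold changes of 0.217 to 0.675 for K700E induction, -0.058 to 0.301 for WT induction, -0.034 to 0.464 for induced lines, -0.327 to -0.002 for uninduced lines, 0.051 to 0.63 for the interaction, 0.146 to 0.39 for doxycycline in both lines and -0.064 to 0.144 for K700E line against WT line. Other settings gave 0.308 to 0.474 for K700E induction. Counting near-identical copies once, an alternative chosen after seeing the data, gave 0.417 there and 0.265 for the interaction. Scaling to equal FPKM sums gave -0.234 for induced lines, -0.403 for uninduced lines and -0.342 for K700E line against WT line, where the medians of all genes were -0.395, -0.295 and -0.349. Adding assembled transcripts 50% inside a gene gave 0.475 for induced lines.

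Single genes turned sign as follows, and the cause was not tested except where a zero is named. With transcripts 50% inside a gene, HIST1H2BK was at 0.997 and HIST1H2BN at -0.33 for K700E induction, HIST1H2BN at -0.424 for induced lines and -0.261 for the interaction, HIST1H2AH at 0.298 for uninduced lines and HIST1H4A at 0.778 between lines. With those of 300 nt or more 50% on a single-exon reference (an alternative chosen after seeing the data), HIST1H2BN was at -0.323, 0.292, -0.703 and -0.615 for K700E induction, WT induction, induced lines and interaction, HIST1H2AH at 0.374 for uninduced lines, and HIST1H4A at 0.129 for doxycycline and 0.675 between lines. With reference transcripts alone, which list more zeros, HIST1H3B was at -5.152 for K700E induction, HIST1H2BH at 1.767, 2.658 and -0.158 for WT induction, uninduced lines and interaction, and HIST1H2AJ at 5.575 between lines. Quantile normalization gave HIST1H2BO -0.008 for K700E induction.

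Without single libraries, K700E induction ranged from -0.118 to 0.395 for HIST1H1C, -1.014 to 0.219 for HIST1H2BK, -1.037 to 7.863 for HIST1H2BN, -0.102 to 0.508 for HIST1H2BO, -0.015 to 1.38 for HIST1H4J, -1.467 to 0.344 for HIST2H2BC and -0.074 to 0.963 for HIST2H4B. HIST1H2BN ranged from -8.359 to 0.692 for WT induction, -1.178 to 7.87 for induced lines and -8.358 to 0.552 for uninduced lines, and HIST1H4A from -2.902 to 0.38 between lines. Where 1 library of a group was left, it was assumed to vary like the other groups.

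With the replicate number as a block, 0 histone genes were called in each comparison and the medians were the same (0.43 for K700E induction). Deviations of same-numbered libraries correlated at -0.04 to 0.098 over 8740 genes, and at -0.302 to 0.333 over 48 histone genes (0.333 between the WT groups, 0.018 between the K700E groups). The pairs were not all over 0.1, so the numbers were not taken as pairs. The deposited interval half-widths (medians of 4.45% to 5.6%) were under the spread between libraries.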
